A study of Homo sapiens with 12 samples.

Results

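The proton-pumping vacuolar ATPase (V-ATPase) and the cathepsins were followed through the differentiation of the human embryonic stem cell line RUES2 into airway epithelium. Members were all probe sets whose gene symbol begins with ATP6V0 or ATP6V1, or is CTS plus 1 letter. There were 38 members among 23786 probe sets, 23 of them ATP6V and 15 cathepsins. The 12 arrays held RUES2 cells before differentiation (day 0, n = 2), a day 15 fraction of lung progenitors with high CD47 (n = 2), cells of day 22 (n = 2), and the SCGB3A2+ fraction (n = 3) and SCGB3A2- fraction (n = 3) of day 36. Cells passed through definitive and anterior foregut endoderm, and the CD47-sorted progenitors were grown on in medium low in Wnt to favour airway cells. The labels name a single line, no gene alteration and no separate treatment, and no sort for days 0 and 22, so in the comparisons with those days the effects of time and of sorting cannot be told apart. The labels do not tie each replicate to a culture of its own, and the p-values therefore measure array-to-array spread within groups, which may be technical only.

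The V-ATPase is a rotary pump built from a cytosolic V1 sector, which hydrolyses ATP, and a membrane-embedded V0 sector, which carries protons. It acidifies endosomes, lysosomes and secretory organelles, among them the lamellar bodies in which alveolar type 2 cells store surfactant. Cathepsins are proteases, most of which need the acid of these compartments, and cathepsin H takes part in the processing of surfactant protein B. Several pump subunits exist as broadly expressed and tissue-restricted isoforms encoded by separate genes.

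All levels are on the log2 scale, from RMA. A difference is the mean of the first-named group minus the mean of the second on that scale, ± the standard error (SE) given by limma, and p-values were adjusted by Benjamini-Hochberg across the whole table with a threshold of 0.05. Levels of different genes are not comparable on these arrays, so each gene is set only against itself. The sort gene SCGB3A2 stood at 9.04, 9.39 and 8.89 in SCGB3A2+ cells and 2.19, 2.70 and 2.06 in SCGB3A2- cells. At day 0 it stood at 7.24 and 7.05, above its day 22 values of 6.01 and 5.57, although day 0 precedes differentiation. The pluripotency factor POU5F1 was highest at day 0 (4.02 and 4.75), and the lung factor NKX2-1 stood at 6.73 and 6.83 at day 15 and 2.60 and 3.34 at day 0. CD47, the surface protein of the day 15 sort, had 8.48 and 8.40 at day 15 and 6.30 and 6.78 at day 0. Correlations between arrays of 1 group, across probe sets, lay between 0.9785 and 0.9927.

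Of the 38 members, 27 passed limma's F-test for any difference over the 5 groups, as did 51.3% of all probe sets. These 27 were 16 of the 23 ATP6V members and 11 of the 15 cathepsins, and 20 of them spanned at least 2-fold between their highest and lowest group means. The median span was 0.97 for the ATP6V members and 1.55 for the cathepsins, against 0.70 over all probe sets. All probe sets include many dim ones. With dim probe sets left out, 27 of 32 members and 11970 of 16116 probe sets passed the F-test. Day 0 had the lowest mean for 14 of the 27. The highest mean lay at day 22 for 10 and in SCGB3A2+ cells for 11, and in SCGB3A2- cells for CTSE alone. The 6 members ATP6V1B1, ATP6V1E2, ATP6V1G3, CTSF, CTSG and CTSW never reached a group mean of 2.96, the level at the 40th percentile of all values, and none of them passed the F-test. In bulk samples, fewer cells of a type and less RNA per cell cannot be told apart.

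**Figure D1:**
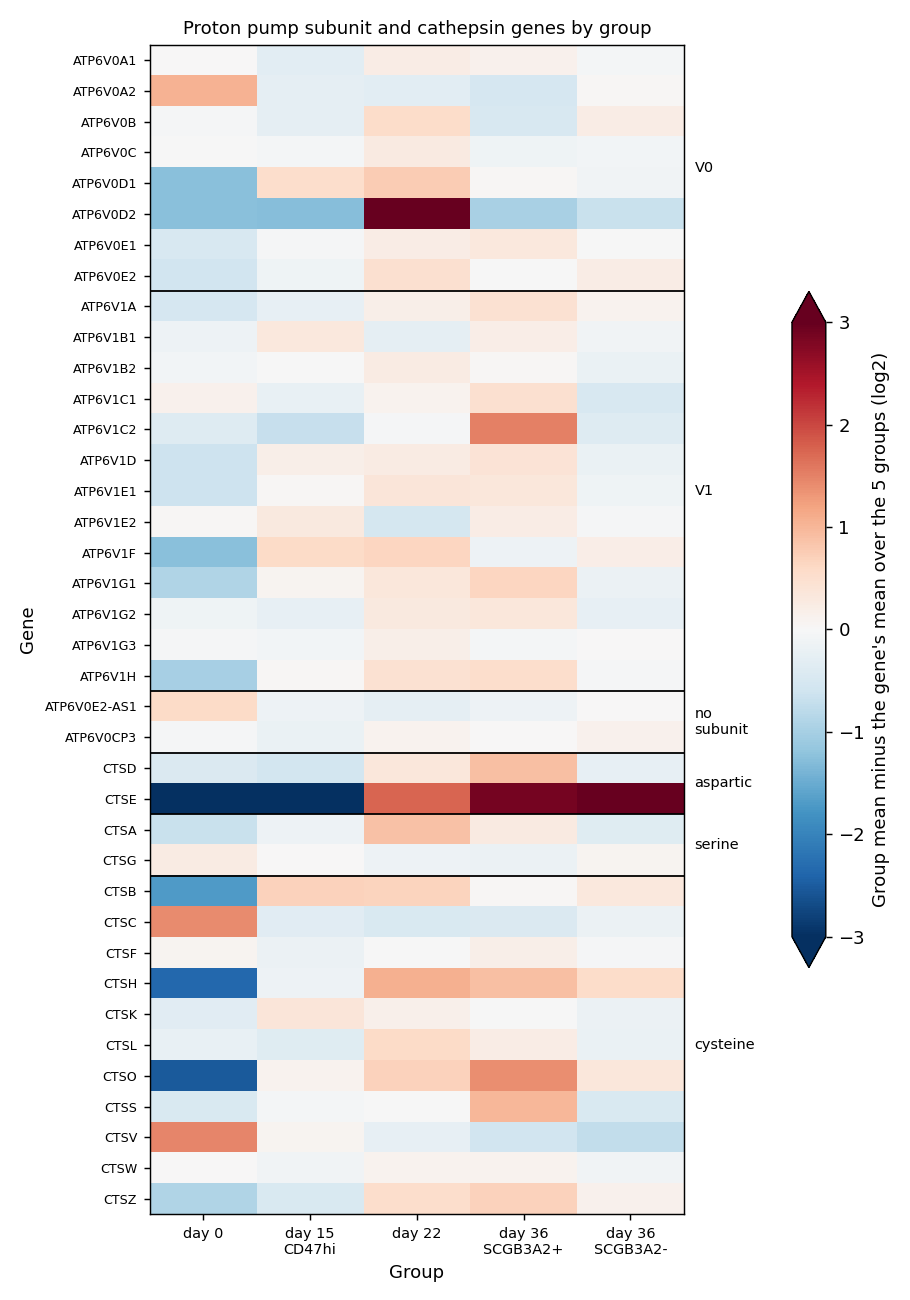
Group means of the 38 members, each minus that gene's own mean over the 5 groups (log2, colour scale from -3 to 3, with values beyond shown at its ends). Rows are genes ordered by sector or protease class and columns are groups. ATP6V0D2 is high at day 22 alone, CTSE is low at days 0 and 15, and ATP6V1C2 and CTSS are highest in SCGB3A2+ cells.

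In the V0 sector, the broadly expressed d subunit gene rose at day 15 and its tissue-restricted isoform at day 22. The d subunit joins the rotating membrane ring to the central stalk of V1. ATP6V0D1, the broad form, had 5.98 and 6.20 at day 0, 8.01 and 7.73 at day 15, 8.01 and 8.19 at day 22, 7.41, 7.32 and 7.41 in SCGB3A2+ cells and 7.14, 7.25 and 7.32 in SCGB3A2- cells. Its day 0 arrays lay below all others, and both day 36 sorts lay below days 15 and 22. It rose by 1.78 ± 0.15 at day 15 against day 0 (adjusted p = 4.35e-06), a 3.43-fold change. Against day 22 it was lower in SCGB3A2+ cells (-0.72 ± 0.14, adjusted p = 0.0057) and in SCGB3A2- cells (-0.86 ± 0.14, adjusted p = 0.00257). Without day 22 C, the adjusted p for SCGB3A2+ cells was 0.0759.

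ATP6V0D2 encodes the d isoform known from kidney and osteoclasts. Its levels were 1.58 and 1.86 at day 0, 1.71 and 1.68 at day 15, 6.07 and 8.19 at day 22, 1.68, 2.41 and 1.95 in SCGB3A2+ cells and 1.63, 2.28 and 3.03 in SCGB3A2- cells. The day 22 arrays stood clear of all others, whose highest value was 3.03 on SCGB3A2- C, and they differed from each other by over 2 log2 units. The rise at day 22 against day 15 was 5.43 ± 0.57 (adjusted p = 5.06e-05). All group means other than that of day 22 lay below 2.96, the 40th percentile of all values, so the sizes of its differences from day 22 are uncertain and no fold is given. Against day 22 it was lower in SCGB3A2+ cells (-5.12 ± 0.52, adjusted p = 0.000181) and in SCGB3A2- cells (-4.81 ± 0.52, adjusted p = 0.000205). The sorts did not differ past the threshold (-0.30 ± 0.46, adjusted p = 0.731, 95% interval -1.32 to 0.71). The 3 calls held under every alternative tried. From the list of ionocyte and intercalated cell genes, HEPACAM2, an adhesion molecule gene, was also called higher at day 22, with 5.73 and 7.58 at day 22 and 1.53 and 1.61 at day 15 (5.09 ± 0.67, adjusted p = 0.000297). That list had 13 measured genes, of which 2 (HEPACAM2 and CFTR) rose and 1 (KIT) fell at day 22 against day 15. Its mean level was 2.78 to 2.89 on the day 22 arrays and 2.50 to 2.68 on those of day 15. The defining factors FOXI1 (2.07 and 1.85) and ASCL3 (1.44 and 1.21) were at the low end of the scale at day 22. Of the 14 macrophage and osteoclast genes measured, 0 passed at day 22 against day 15 (0 at an unadjusted p under 0.05), where 19.5% of all probe sets did, and the osteoclast fusion gene DCSTAMP had 1.55 and 1.58 at day 22. The part of other cell types in the course of ATP6V0D2 was not tested.

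The a subunits hold the path of the protons through the membrane and steer the pump to its compartment. ATP6V0A2, the form of the Golgi apparatus, had 7.09 and 6.83 at day 0, 5.74 and 5.60 at day 15, 5.66 and 5.58 at day 22, 5.40, 5.41 and 5.44 in SCGB3A2+ cells and 5.99, 6.07 and 5.85 in SCGB3A2- cells. Day 0 was above all other groups, and SCGB3A2+ arrays were below SCGB3A2- arrays. It fell at day 15 against day 0 by 1.30 (SE 0.14, adjusted p = 3.25e-05) and was lower in SCGB3A2+ than in SCGB3A2- cells (-0.56 ± 0.12, adjusted p = 0.0047). ATP6V0A1, another a subunit, had 7.59 and 7.54 at day 0, 7.25 and 7.23 at day 15, 7.81 and 7.71 at day 22, 7.74, 7.58 and 7.72 in SCGB3A2+ cells and 7.46, 7.53 and 7.46 in SCGB3A2- cells. Its day 15 arrays were the lowest. It rose at day 22 against day 15 by 0.52 ± 0.13 (adjusted p = 0.0125), a call that ended on leaving out day 15 B (0.0636), day 15 C (0.0727) or day 22 A (0.0777). The F-test of ATP6V0A1 also failed under each of these omissions (0.0954, 0.105 and 0.0586, in the same order).

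Genes of the proteolipid ring and of the small e subunits completed the sector. ATP6V0B, a ring subunit, had 7.22 and 7.36 at day 0, 7.08 and 7.004 at day 15, 7.80 and 7.92 at day 22, 6.94, 6.74 and 6.84 in SCGB3A2+ cells and 7.52, 7.49 and 7.64 in SCGB3A2- cells. Its day 22 values were the highest and those of SCGB3A2+ cells the lowest, below every other array. It rose at day 22 against day 15 (0.82 ± 0.14, adjusted p = 0.00132). It was lower in SCGB3A2+ cells than at day 22 (-1.03 ± 0.12, adjusted p = 0.000443) and than in SCGB3A2- cells (-0.71 ± 0.11, adjusted p = 0.000727), and these calls held under every alternative. ATP6V0C, the main ring subunit, passed in no comparison, with group means from 9.21 to 9.61 (F-test adjusted p = 0.28). ATP6V0E1 rose at day 15 against day 0 by 0.45 ± 0.13 (adjusted p = 0.0194), a call that ended on leaving out day 0 A (0.0749), day 15 B (0.083) or day 15 C (0.0835), and its group means ran from 9.38 to 10.18. ATP6V0E2 had means from 5.30 to 6.36 and passed no single comparison in the main fit. At day 22 against day 15 it passed as higher on the compared arrays alone (0.0457) and without SCGB3A2+ A (0.0306). In SCGB3A2+ cells against day 22 it passed as lower without SCGB3A2+ B (0.0397). Its F-test passed (adjusted p = 0.0189). That F-test failed without day 0 C (0.0953) or day 22 C (0.0601).

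In the V1 sector, 5 of 13 genes rose at day 15 against day 0 and 0 fell, and 7 of 13 were higher in SCGB3A2+ than in SCGB3A2- cells and 0 lower. At an unadjusted p under 0.05, 1 (ATP6V1C1) was lower in the first comparison and 1 (ATP6V1F) in the second. ATP6V1C1 passed as lower at day 15 with an intensity trend (adjusted p = 0.0319) and without dim probe sets (0.0464). ATP6V1F passed as lower between the sorts under the alternatives given with its levels. Over all probe sets, 16.2% were higher and 15.3% lower in the first of these comparisons, and 10.1% and 12.8% in the second. The 13 genes had a median log2 difference of 0.27 at day 15 against day 0 and of 0.46 between the sorts, where all probe sets had -0.05 and 0.015. ATP6V1C2 encodes a tissue-restricted form of the C subunit, which helps clamp V1 to V0. It had 2.89 and 2.42 at day 0, 2.26 and 2.44 at day 15, 3.03 and 2.99 at day 22, 4.83, 3.89 and 4.95 in SCGB3A2+ cells and 2.60, 2.66 and 2.74 in SCGB3A2- cells. All 3 SCGB3A2+ arrays lay above every other array, with B the lowest of them, and the other groups were near the low end of the scale. The gene was higher in SCGB3A2+ than in SCGB3A2- cells (1.89 ± 0.24, adjusted p = 0.000175) and higher than at day 22 (1.55 ± 0.27, adjusted p = 0.00327). Both calls held under every alternative. The SCGB3A2- mean lay below 2.96, so no fold is given between the sorts.

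ATP6V1C1, the broad C form, had 7.35 and 7.48 at day 0, 7.10 and 7.003 at day 15, 7.48 and 7.26 at day 22, 7.81, 7.67 and 7.77 in SCGB3A2+ cells and 6.85, 6.68 and 6.82 in SCGB3A2- cells. The SCGB3A2- arrays were the lowest of all and the SCGB3A2+ arrays the highest. It was higher in SCGB3A2+ than in SCGB3A2- cells by 0.97 ± 0.11 (adjusted p = 0.00011). In SCGB3A2- cells it was lower than at day 22 (-0.59 ± 0.13, adjusted p = 0.0155), but not without day 22 A (0.138) or SCGB3A2- B (0.0667). In SCGB3A2+ cells its difference from day 22 was 0.38 ± 0.13 (adjusted p = 0.0735), and it passed with an intensity trend (0.0303) and without dim probe sets (0.0459). The difference between the isoforms was not tested.

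The stalk genes ATP6V1G1 and ATP6V1E1 encode parts of the outer struts that hold the head still. ATP6V1G1 had 7.41 and 6.79 at day 0, 8.13 and 8.09 at day 15, 8.21 and 8.50 at day 22, 8.69, 8.60 and 8.70 in SCGB3A2+ cells and 7.80, 7.98 and 7.75 in SCGB3A2- cells. Its day 0 values were the lowest, and the SCGB3A2+ arrays lay above the SCGB3A2- arrays. It rose at day 15 against day 0 by 1.01 ± 0.19 (adjusted p = 0.00185) and was higher in SCGB3A2+ than in SCGB3A2- cells by 0.82 ± 0.16 (adjusted p = 0.00295). ATP6V1E1 rose at day 15 by 0.65 ± 0.14 (adjusted p = 0.00353) and was higher in the SCGB3A2+ sort than in the other by 0.46 ± 0.11 (adjusted p = 0.0112). Its fall in SCGB3A2- cells against day 22 (-0.49 ± 0.13, adjusted p = 0.0366) did not pass when any array of day 15, day 22 or the SCGB3A2- group was left out (0.055 to 0.231).

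ATP6V1F and ATP6V1D encode the central rotor of V1. ATP6V1F had 6.33 and 6.001 at day 0, 7.96 and 8.01 at day 15, 7.92 and 8.20 at day 22, 7.17, 7.32 and 7.33 in SCGB3A2+ cells and 7.56, 7.68 and 7.66 in SCGB3A2- cells. Day 0 lay below all later arrays, and SCGB3A2+ arrays lay below those of day 22. The rise at day 15 was 3.53-fold (1.82 ± 0.16, adjusted p = 4.7e-06), the largest of any ATP6V member in that comparison. In SCGB3A2+ cells it was lower than at day 22 (-0.78 ± 0.14, adjusted p = 0.00438), but not without day 22 C (0.0704), and its difference between the sorts was -0.36 ± 0.13 (adjusted p = 0.067). That difference passed on the compared arrays alone (0.045), with an intensity trend (0.0299), with array weights (0.0292), after quantile normalization (0.0447), without dim probe sets (0.0436), and without day 0 A (0.0373) or day 0 C (0.0373). ATP6V1D rose at day 15 (0.80 ± 0.18, adjusted p = 0.00448) and was higher in SCGB3A2+ than in SCGB3A2- cells (0.62 ± 0.15, adjusted p = 0.00907).

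The head of V1 carries the catalytic sites. ATP6V1A, the catalytic subunit, was higher in SCGB3A2+ than in SCGB3A2- cells by 0.37 ± 0.11 (adjusted p = 0.029, and 0.0529 with the replicate letter as a block). That call ended without SCGB3A2+ A (0.0702) or B (0.0821), or without SCGB3A2- A (0.0768), B (0.114) or C (0.0508). Its rise at day 22 against day 15 (0.42 ± 0.13, adjusted p = 0.044) ended when any array later than day 0 was left out (0.0532 to 0.221). ATP6V1B2, the broad B subunit, passed in no comparison, with means from 7.98 to 8.40 (F-test adjusted p = 0.116). In SCGB3A2- cells against day 22 its difference was -0.43 ± 0.13 (adjusted p = 0.0708). It passed there with an intensity trend (0.0198), with array weights (0.0297) and without dim probe sets (0.0445). Its F-test passed with an intensity trend (0.032). ATP6V1H, which regulates the coupling of the sectors, rose at day 15 by 1.02 ± 0.18 (adjusted p = 0.00089) and was higher in SCGB3A2+ than in SCGB3A2- cells by 0.57 ± 0.14 (adjusted p = 0.0135, 0.0598 without SCGB3A2- B).

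The remaining tissue-restricted isoforms stayed low. ATP6V1B1, a form of kidney and inner ear, ATP6V1E2, a form of testis, and ATP6V1G3, a form of kidney, had group means of at most 2.12, 2.85 and 1.41. ATP6V1G2, a neuronal form, had means from 3.31 to 3.89 and passed no test (F-test adjusted p = 0.201). Of the 6 tissue-restricted isoforms, 2 passed the F-test (ATP6V0D2 and ATP6V1C2), and of the 15 broad subunits 13 did, against 51.3% of all probe sets. ATP6V1B1, ATP6V1E2 and ATP6V1G3 stayed below 2.96 in every group, so isoform class and signal level cannot be told apart in these counts. Among members that encode no subunit, the antisense RNA ATP6V0E2-AS1 fell at day 15 against day 0, with 3.20 and 3.15 at day 15 and 4.02 and 3.78 at day 0 (-0.73 ± 0.14, adjusted p = 0.00206). Whether its probes separate it from the overlapping ATP6V0E2 is not given in the sources used here. The pseudogene ATP6V0CP3, whose probes may share signal with ATP6V0C, passed no test.

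**Figure D2:**
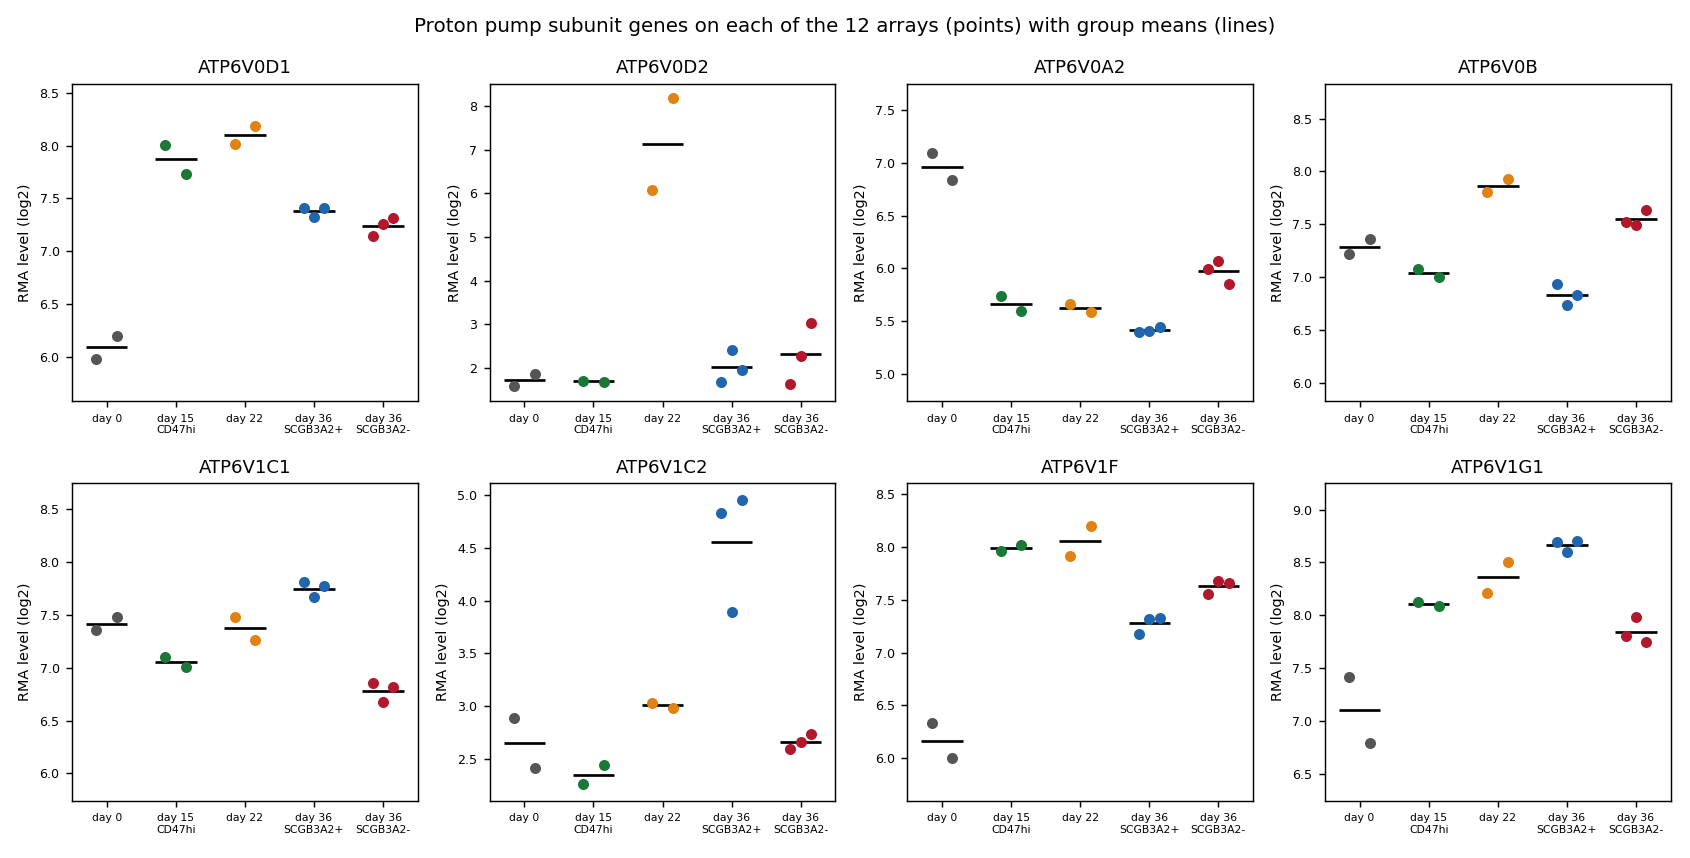
RMA log2 levels of 8 ATP6V genes on each of the 12 arrays (points) with group means (lines), 1 panel a gene, each with its own vertical axis. ATP6V0D2 is at 6.07 and 8.19 at day 22 and at most 3.03 in the other groups, and the 3 SCGB3A2+ arrays lie above all others for ATP6V1C2.

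Among the aspartic cathepsins, CTSE rose at day 22 and stayed high, and CTSD separated the day 36 sorts. Cathepsin E is found in the endosomes of gastric and immune cells. CTSE had 3.69 and 3.46 at day 0, 3.18 and 3.60 at day 15, 9.05 and 9.11 at day 22, 10.37, 9.38 and 10.86 in SCGB3A2+ cells and 10.79, 9.99 and 10.61 in SCGB3A2- cells. All arrays from day 22 on lay more than 5 log2 units above those of days 0 and 15. The rise at day 22 against day 15 was 51.6-fold (5.69 ± 0.39, adjusted p = 2.12e-06). It was higher still in SCGB3A2- cells than at day 22 (1.39 ± 0.36, adjusted p = 0.0365), but not without day 22 A (0.158), day 22 C (0.156), SCGB3A2- A (0.114) or SCGB3A2- C (0.106). In SCGB3A2+ cells the difference from day 22 was 1.13 ± 0.36 (adjusted p = 0.0574). It passed with the replicate block (0.00423), with an intensity trend (0.0385), without dim probe sets (0.0438) and without SCGB3A2+ B (0.00521). The sorts differed by -0.26 ± 0.32 (adjusted p = 0.655, 95% interval -0.96 to 0.44). Of 10 genes of gastric epithelium, 5 rose at day 22 against day 15 and 0 fell (0 at an unadjusted p under 0.05). Over all probe sets, 8.95% rose and 10.6% fell. Those that rose included TFF1 (6.20 ± 0.46, adjusted p = 3.8e-06) and VSIG1 (4.21 ± 0.44, adjusted p = 4.96e-05). Against day 22, 3 of the 10 were higher and 0 lower in each day 36 sort. These were CLDN18, TFF2 and ANXA10, where 6.75% (SCGB3A2+) and 3.75% (SCGB3A2-) of all probe sets were higher. The mean level of these 10 genes was 4.63 to 4.85 on the day 22 arrays and 3.08 to 3.15 on those of day 15. It was 5.21 to 6.62 on the SCGB3A2+ arrays and 5.50 to 5.92 on the SCGB3A2- arrays. Their part in the rise of CTSE was not tested.

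Cathepsin D is the main aspartic protease of lysosomes. CTSD had 9.61 and 9.47 at day 0, 9.43 and 9.40 at day 15, 10.29 and 10.31 at day 22, 11.22, 10.81 and 10.63 in SCGB3A2+ cells and 9.81, 9.82 and 9.56 in SCGB3A2- cells. The SCGB3A2+ arrays were the highest of all, and the SCGB3A2- arrays lay below both day 22 arrays. It was 2.23-fold higher in SCGB3A2+ than in SCGB3A2- cells (1.16 ± 0.15, adjusted p = 0.000244), under every alternative, and rose at day 22 against day 15 by 0.89 ± 0.19 (adjusted p = 0.00587). The rise in SCGB3A2+ cells against day 22 (0.58 ± 0.17, adjusted p = 0.0427) ended without any 1 array of day 15, day 22 or the SCGB3A2- group, or without SCGB3A2+ A or B (0.0515 to 0.184).

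CTSA, which encodes a serine carboxypeptidase that also shields other lysosomal enzymes, peaked at day 22. Its levels were 7.84 and 7.67 at day 0, 8.29 and 8.24 at day 15, 9.22 and 9.40 at day 22, 8.84, 8.49 and 8.75 in SCGB3A2+ cells and 7.99, 8.12 and 8.08 in SCGB3A2- cells. The day 22 arrays lay above all others, and SCGB3A2+ arrays lay above SCGB3A2- arrays. It rose at day 22 against day 15 by 1.04 ± 0.15 (adjusted p = 0.000595), was lower in SCGB3A2- cells than at day 22 by 2.37-fold (-1.24 ± 0.14, adjusted p = 0.000273) and was higher in SCGB3A2+ than in SCGB3A2- cells by 0.63 ± 0.13 (adjusted p = 0.00333). The decrease in SCGB3A2+ cells against day 22 (-0.61 ± 0.14, adjusted p = 0.0138) did not pass without day 22 C (0.141). The rise at day 15 against day 0 (0.51 ± 0.15, adjusted p = 0.0242) did not pass without day 0 C (0.114), day 15 B (0.11) or day 15 C (0.0806). CTSG, a granule protease of neutrophils, stayed below 2.96 in every group, and 0 of 11 neutrophil and cytotoxic lymphocyte genes passed in any comparison (unadjusted p under 0.05 in 4 of these tests).

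Of the 11 cysteine cathepsins, CTSH, CTSB and CTSO rose early. CTSH encodes an aminopeptidase of lamellar bodies. It had 5.80 and 5.67 at day 0, 8.25 and 7.61 at day 15, 9.14 and 9.19 at day 22, 9.14, 8.42 and 9.40 in SCGB3A2+ cells and 8.77, 8.46 and 8.73 in SCGB3A2- cells. Day 0 was below all other arrays, the SCGB3A2+ arrays spanned those of day 22, and the SCGB3A2- arrays lay between days 15 and 22. It rose 4.58-fold at day 15 against day 0 (2.20 ± 0.29, adjusted p = 0.000123) and by 1.23 ± 0.29 at day 22 against day 15 (adjusted p = 0.0105), and the second call ended without day 15 C (0.109) or day 22 C (0.0598). The sorts differed by 0.33 ± 0.24 (adjusted p = 0.385, 95% interval -0.18 to 0.85), whereas NAPSA, the aspartic protease that also processes surfactant proteins, had 8.16, 7.23 and 7.84 in SCGB3A2+ cells and 4.01, 3.32 and 3.46 in SCGB3A2- cells (4.15 ± 0.26, adjusted p = 1.35e-06). Without SCGB3A2+ B, the adjusted p of CTSH between the sorts was 0.0452.

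CTSB, a widely expressed lysosomal protease gene, had 7.81 and 7.52 at day 0, 10.15 and 9.95 at day 15, 9.94 and 10.12 at day 22, 9.52, 9.25 and 9.42 in SCGB3A2+ cells and 9.65, 9.67 and 9.70 in SCGB3A2- cells. Its day 0 arrays were the lowest, and SCGB3A2+ arrays lay below those of day 22. It rose 5.21-fold at day 15 against day 0 (2.38 ± 0.16, adjusted p = 5.23e-07). In SCGB3A2+ cells it was lower than at day 22 (-0.64 ± 0.14, adjusted p = 0.0124), but not without day 22 C (0.131). CTSO, a little-studied family member, had 2.33 and 1.43 at day 0, 4.68 and 4.34 at day 15, 5.24 and 4.93 at day 22, 5.72, 5.78 and 5.87 in SCGB3A2+ cells and 4.68, 4.76 and 4.78 in SCGB3A2- cells. Day 0 was again the lowest group, and the SCGB3A2+ arrays were the highest of all. It rose at day 15 against a day 0 mean below 2.96 (2.63 ± 0.25, adjusted p = 9.33e-06) and was 2.07-fold higher in SCGB3A2+ than in SCGB3A2- cells (1.05 ± 0.20, adjusted p = 0.00264). Its difference in SCGB3A2+ cells against day 22 was 0.71 ± 0.22 (adjusted p = 0.0569), and it passed on the compared arrays alone (0.0401), with array weights (0.0301), without dim probe sets (0.0415), and without day 0 A (0.00848) or day 0 C (0.00848).

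CTSC and CTSV went the other way. CTSC encodes a dipeptidyl peptidase that activates granule proteases. It had 9.49 and 9.60 at day 0, 7.69 and 7.89 at day 15, 7.52 and 7.81 at day 22, 7.86, 7.82 and 7.40 in SCGB3A2+ cells and 7.77, 7.98 and 8.13 in SCGB3A2- cells. Day 0 stood above every later array, and the later groups overlapped. It fell 3.38-fold at day 15 against day 0 (-1.76 ± 0.19, adjusted p = 3.02e-05) and passed in no later comparison. CTSV, a close relative of CTSL, had 7.44 and 7.58 at day 0, 6.22 and 6.05 at day 15, 5.73 and 5.87 at day 22, 5.11, 5.61 and 5.69 in SCGB3A2+ cells and 5.19, 5.26 and 5.46 in SCGB3A2- cells. Its highest arrays were those of day 0 and its lowest those of day 36, where the sorts overlapped. It fell 2.6-fold at day 15 (-1.38 ± 0.20, adjusted p = 0.000219), and its later steps did not pass (-0.33 ± 0.20 at day 22 against day 15, adjusted p = 0.292, and -0.50 ± 0.18 in SCGB3A2- cells against day 22, adjusted p = 0.128).

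CTSS, CTSL and CTSZ separated the day 36 sorts. CTSS encodes a protease of antigen presentation that stays active near neutral pH. It had 1.71 and 1.72 at day 0, 2.07 and 2.18 at day 15, 2.24 and 2.09 at day 22, 3.22, 3.46 and 2.82 in SCGB3A2+ cells and 1.68, 1.88 and 1.57 in SCGB3A2- cells. The SCGB3A2+ arrays lay above every other array, close to the 40th percentile of 2.96, and the rest lay below that level. It was higher in SCGB3A2+ than in SCGB3A2- cells (1.46 ± 0.16, adjusted p = 6.04e-05), under every alternative, and higher than at day 22 (1.003 ± 0.18, adjusted p = 0.00381, 0.0536 without day 22 C). Of the 14 macrophage and osteoclast genes measured, 0 were higher and 1, FCER1G, was lower in SCGB3A2+ than in SCGB3A2- cells (2 and 1 at an unadjusted p under 0.05). Their mean level was 2.08 to 2.16 on the SCGB3A2+ arrays and 2.10 to 2.13 on the SCGB3A2- arrays. PTPRC, the leukocyte antigen CD45, had 1.25, 1.22 and 1.22 in SCGB3A2+ cells and 1.24, 1.26 and 1.08 in SCGB3A2- cells. CTSK, the next protein-coding gene on the chromosome and a collagenase of osteoclasts, differed by 0.17 ± 0.17 between the sorts (adjusted p = 0.572). Its rise at day 15 against day 0 (0.72 ± 0.21, adjusted p = 0.0212) ended without day 0 C (0.174), day 15 B (0.0504) or day 15 C (0.127).

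CTSL, a broad lysosomal endopeptidase gene, had 6.64 and 6.63 at day 0, 6.24 and 6.74 at day 15, 7.30 and 7.52 at day 22, 7.12, 7.03 and 7.05 in SCGB3A2+ cells and 6.71, 6.69 and 6.52 in SCGB3A2- cells. Its day 22 arrays were the highest, and the sorts did not overlap. It rose at day 22 against day 15 by 0.92 ± 0.17 (adjusted p = 0.00261) and was lower in SCGB3A2- cells than at day 22 (-0.77 ± 0.16, adjusted p = 0.0108, 0.108 without day 22 C). The difference between the sorts (0.43 ± 0.14, adjusted p = 0.0458) was narrow, with 0.0639 under the replicate block and 0.0519 to 0.16 without any 1 array of day 22 or day 36. CTSZ, a carboxypeptidase gene, rose at day 22 against day 15 by 0.99 ± 0.21 (adjusted p = 0.00535). It was higher in SCGB3A2+ than in SCGB3A2- cells (0.57 ± 0.17, adjusted p = 0.0308), but not without SCGB3A2+ A (0.112) or C (0.0874), or without SCGB3A2- A (0.0658), B (0.103) or C (0.0716). CTSF and CTSW, the second a gene of cytotoxic lymphocytes, passed no test.

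**Figure D3:**
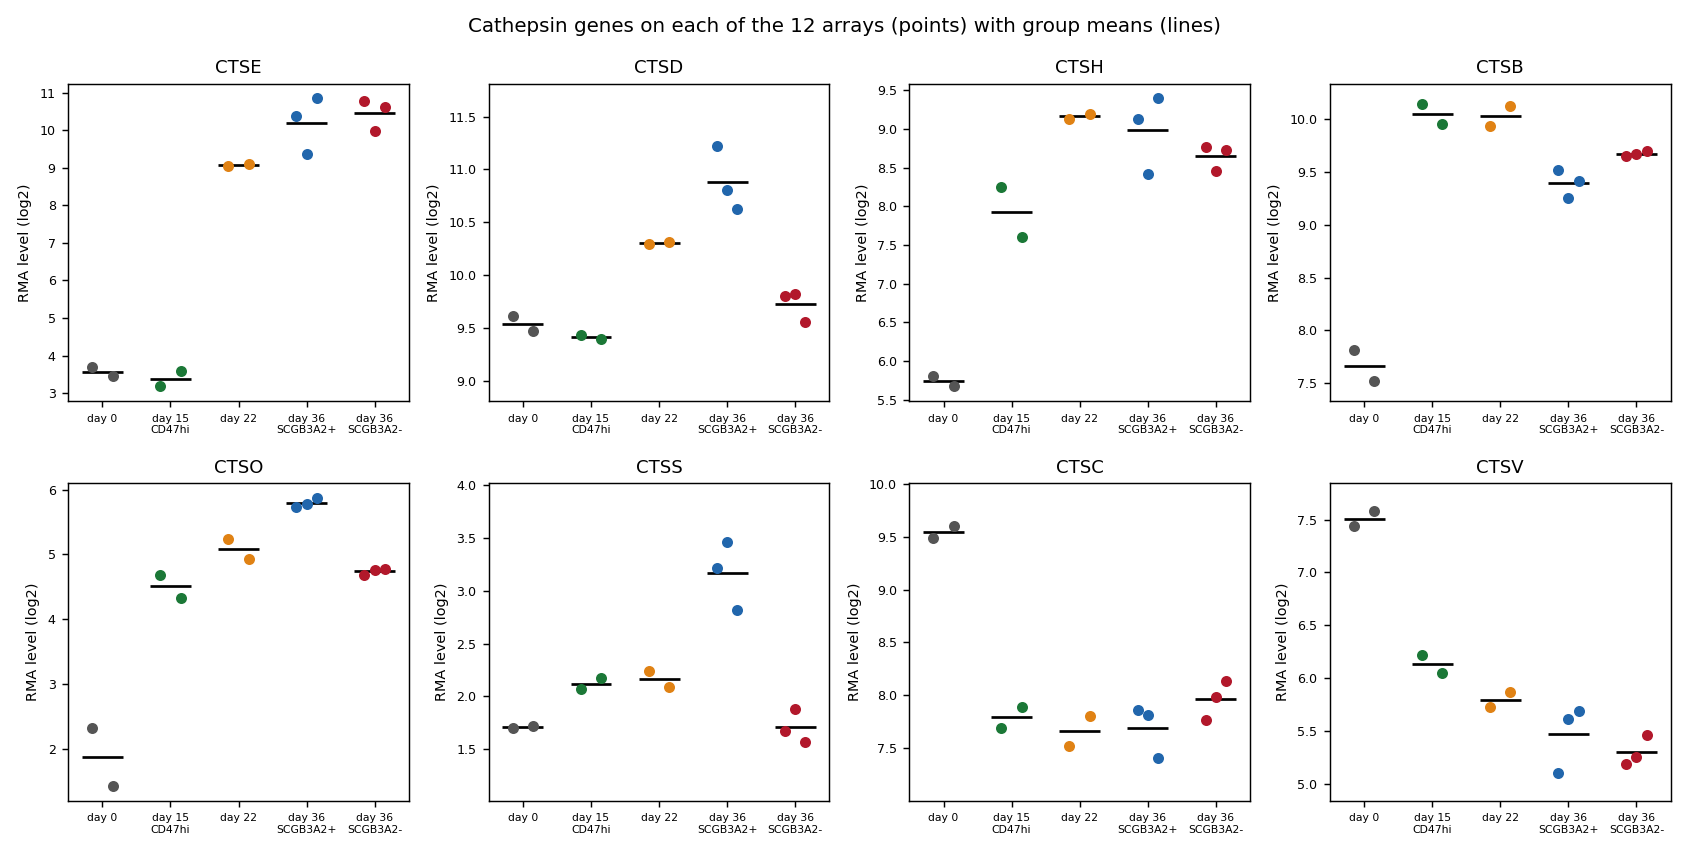
RMA log2 levels of 8 cathepsin genes on each of the 12 arrays (points) with group means (lines), 1 panel a gene, each with its own vertical axis. CTSE is high from day 22 on, CTSC and CTSV are highest at day 0, and CTSS, CTSD and CTSO are highest on the 3 SCGB3A2+ arrays.

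Promoter sequence was examined for the E-box that the lysosomal regulator TFEB is known to bind. RefSeq windows from 250 bases before to 50 after the start site (GRCh38.p14) were at hand for 25 of the 38 members. The motif TCACGTG, searched on both strands, lay in the windows of 7 of these 25 genes (28%), and in those of 4.49% of all 27305 symbols with a window. On the other strand it reads CACGTGA. The stretches that hold it are shown 5′ to 3′ on the strand of the gene, with each match in capitals, to set the motif beside the courses of these genes.
ATP6V0B (chr1:43974872-43974956, + strand): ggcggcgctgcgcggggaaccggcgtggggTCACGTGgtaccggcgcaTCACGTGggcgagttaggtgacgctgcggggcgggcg
ATP6V0D1 (chr16:67481180-67481247, - strand): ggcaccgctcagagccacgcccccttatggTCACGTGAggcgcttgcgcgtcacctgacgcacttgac
ATP6V0E2 (chr7:149872865-149872931, + strand): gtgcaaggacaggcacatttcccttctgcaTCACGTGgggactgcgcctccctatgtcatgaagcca
ATP6V1G1 (chr9:114587680-114587747, + strand): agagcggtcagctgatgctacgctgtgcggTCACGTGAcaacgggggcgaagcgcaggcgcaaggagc
CTSA (chr20:45891262-45891346, + strand): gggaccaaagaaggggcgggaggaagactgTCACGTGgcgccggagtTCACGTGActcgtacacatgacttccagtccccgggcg
CTSD (chr11:1763938-1764004, - strand): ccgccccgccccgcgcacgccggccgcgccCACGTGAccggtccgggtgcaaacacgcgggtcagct
CTSF (chr11:66568693-66568759, - strand): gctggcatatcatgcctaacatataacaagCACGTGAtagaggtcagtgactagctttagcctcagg

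The matches began 26 to 73 bases before the start site in 6 of these genes and 123 bases before it in CTSF. ATP6V0B and CTSA held 2 matches each. In ATP6V0D1, ATP6V1G1 and 1 site of CTSA, matches on both strands overlapped as TCACGTGA, which 1.18% of all symbols held. Genes with the motif did not share 1 course. At day 15 against day 0, ATP6V0D1, ATP6V1G1 and CTSA rose by 1.78 ± 0.15, 1.01 ± 0.19 and 0.51 ± 0.15, the call of CTSA ending under some alternatives. ATP6V0B and CTSD did not pass (-0.25 ± 0.14, adjusted p = 0.206, and -0.12 ± 0.19, adjusted p = 0.681). Nor did ATP6V0E2 and CTSF (0.46 ± 0.24, adjusted p = 0.178, and -0.26 ± 0.18, adjusted p = 0.337). Between the sorts, CTSD, ATP6V1G1 and CTSA were higher in SCGB3A2+ than in SCGB3A2- cells and ATP6V0B lower (-0.71 ± 0.11). ATP6V0D1, ATP6V0E2 and CTSF did not pass there. The core CACGTG was in the same 7 genes and in 8.77% of all symbols. Other motifs were searched on both strands as well. The forkhead motif TGTTTAC lay in 4 of the 25 genes and in 4.19% of all symbols. The GATA factor motif GATAAG lay in 4 genes, CTSE and CTSH among them, and in 7.71% of all symbols. The NKX2-1 motif CTCAAG lay in 3 genes and 14.8% of symbols, and the SP1 motif GGGCGG lay in 16 genes and 48.3% of symbols. The AP-1 motif TGANTCA was found in 1 gene and 9.37% of symbols, and the CREB motif TGACGTCA in 0 genes and 2.25% of symbols. A match is a description of the letters, not of binding.

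At day 15 against day 0, 12 of the 38 members were higher and 4 lower (16.2% and 15.3% of all probe sets, 31.5% in both directions). Fitted on the compared arrays alone, ATP6V0E1 (0.14), CTSA (0.0995) and CTSK (0.0813) did not pass. The increases were those of 7 ATP6V subunit genes and of CTSO, CTSB, CTSH, CTSK and CTSA. The decreases were those of CTSC, CTSV, ATP6V0A2 and ATP6V0E2-AS1. ATP6V0A1 (-0.33 ± 0.13, adjusted p = 0.0707) and ATP6V1C1 (-0.36 ± 0.14, adjusted p = 0.0718) missed the threshold. Both passed as lower with an intensity trend (0.0237 and 0.0319) and without dim probe sets (0.0431 and 0.0464). The wider lysosome was set beside the members through lists of other genes. Of 28 further lysosomal hydrolases and their cofactors 19 rose and 3 fell, with a median difference of 0.70 against -0.05 over all probe sets, and SMPD1, acid sphingomyelinase, rose by 2.55 ± 0.18 (adjusted p = 8.57e-07). Lysosomal acid lipase, LIPA, was among those that fell (-2.32 ± 0.17, adjusted p = 1.52e-06). Of 13 measured partners of the pump 6 rose and 0 fell (0 at an unadjusted p under 0.05), among them ATP6AP1, an accessory subunit, at 0.96 ± 0.16 (adjusted p = 0.00076). Of 20 lysosomal membrane genes 7 rose, with LAMP2 at 0.995 ± 0.19 and LAMP1 at 0.73 ± 0.14, and 3 fell. LAPTM4B was among those that fell (-1.42 ± 0.17, adjusted p = 7.36e-05) and had the smallest adjusted p of the 20.

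At day 22 against day 15, 10 members were higher and 0 lower (8.95% and 10.6% of all probe sets). The comparison shares the day 15 arrays with the one before. The 10 genes were ATP6V0D2, ATP6V0B, ATP6V0A1 and ATP6V1A, and CTSE, CTSH, CTSA, CTSZ, CTSL and CTSD. Fitted on the compared arrays alone, ATP6V0A1 (0.0536) and ATP6V1A (0.105) did not pass. In that fit ATP6V0E2 (0.0457) and ATP6V1C2 (0.0332) passed as higher, and ATP6V1E2 (0.0399) as lower. The median difference over the 38 members was 0.28, and -0.011 over all probe sets. At an unadjusted p under 0.05, 2 members were lower, ATP6V1B1 (-0.59 ± 0.23, adjusted p = 0.105) and ATP6V1E2 (-0.82 ± 0.35, adjusted p = 0.134). ATP6V1E2 passed as lower without day 0 A (0.0285) or day 0 C (0.0285), and neither gene was above 2.96 in any group. Of the 28 further hydrolases 12 rose and 2 fell, LIPA rising by 1.66 ± 0.17 and the sulfatase gene IDS falling (-1.53 ± 0.16). Of the 13 pump partners 1 rose, ATP6AP1, and 2 fell, ATP6AP1L and ROGDI, with a median difference of -0.25. Lysosomal membrane genes rose for 6 of 20 and fell for 1. CD68, which encodes a protein of lysosomes that is also used as a macrophage marker, had 6.65 and 7.75 at day 22 and 4.12 and 4.24 at day 15 (3.02 ± 0.36, adjusted p = 0.000125). The gastric protease gene PGC, also of the aspartic class, differed by 6.10 ± 0.36 and NAPSA by 3.23 ± 0.32.

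SCGB3A2+ cells had 3 members higher and 6 lower than day 22 (6.75% and 7.71% of all probe sets), with a median over the 38 of -0.0089. Higher were ATP6V1C2, CTSS and CTSD, and lower were ATP6V0D2, ATP6V0B, ATP6V0D1, ATP6V1F, CTSB and CTSA. CTSE and CTSO missed the threshold and passed as higher under the alternatives given with their levels. Without day 22 C, 3 members passed, and on the compared arrays alone CTSD (0.123), CTSA (0.0683) and CTSB (0.0518) did not. SCGB3A2- cells had 1 member higher, CTSE, and 6 lower than day 22 (3.75% and 4.15% of all probe sets, 7.9% in both directions), with a median of -0.35 against -0.0024 over all probe sets. Lower were ATP6V0D2, ATP6V0D1, ATP6V1C1, ATP6V1E1, CTSA and CTSL. CTSD (-0.57 ± 0.17, adjusted p = 0.0663), ATP6V1B2, ATP6V1F and ATP6V1G1 missed the threshold and passed as lower under some alternatives. With an intensity trend, ATP6V1B2 (0.0198), ATP6V1F (0.0451) and CTSD (0.0212) passed. With array weights, ATP6V1B2 (0.0297), ATP6V1G1 (0.0475) and CTSD (0.0403) passed. Under each of these settings 9 members were lower. Without day 22 A, and likewise without day 22 C, 4 members passed. The call of CTSE also ended after quantile normalization (0.0548) and that of ATP6V1E1 on the compared arrays alone (0.0505). These comparisons share the day 22 arrays, so their calls are not independent of each other. Of the 28 further hydrolases 2 were higher and 6 lower in SCGB3A2+ cells than at day 22, and 0 and 10 in SCGB3A2- cells (1 higher at an unadjusted p under 0.05). Of the 13 pump partners 0 were higher and 2 lower in SCGB3A2+ cells, and 0 and 1 in SCGB3A2- cells. At an unadjusted p under 0.05, 3 and 1 of these partners were higher, in that order. Of the 20 lysosomal membrane genes 2 were higher and 5 lower in SCGB3A2+ cells, and 1 and 7 in SCGB3A2- cells. LAMP1, a main protein of that membrane, had 8.89 and 8.65 at day 22. It had 8.10, 8.10 and 8.07 in SCGB3A2+ cells (-0.68 ± 0.13, adjusted p = 0.00595) and 7.60, 7.60 and 7.58 in SCGB3A2- cells (-1.18 ± 0.13, adjusted p = 0.000261). LAPTM4B was lower in SCGB3A2+ cells (-0.61 ± 0.16, adjusted p = 0.0244) and higher in SCGB3A2- cells (1.14 ± 0.16, adjusted p = 0.00111).

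Between the day 36 sorts, 13 members were higher and 2 lower in SCGB3A2+ than in SCGB3A2- cells (10.1% and 12.8% of all probe sets). Higher were 7 V1 genes (ATP6V1A, ATP6V1C1, ATP6V1C2, ATP6V1D, ATP6V1E1, ATP6V1G1 and ATP6V1H) and 6 cathepsins (CTSA, CTSD, CTSL, CTSO, CTSS and CTSZ). Lower were the V0 genes ATP6V0A2 and ATP6V0B, and no V0 gene was higher (1 at an unadjusted p under 0.05, ATP6V0E1). ATP6V0E1 (0.31 ± 0.11, adjusted p = 0.056) passed as higher with an intensity trend (0.006), with array weights (0.0339), after re-centring (0.0431), without dim probe sets (0.0329), and without day 0 A (0.0328) or day 0 C (0.0328), and the V1 gene ATP6V1F passed as lower under 7 alternatives. The median difference was 0.46 for the 13 V1 genes, -0.16 for the 8 V0 genes and 0.21 for the 15 cathepsins, against 0.015 over all probe sets. With the replicate letter as a block, 11 were higher and 2 lower, and the calls that ended were those of ATP6V1A and CTSL, the second also after quantile normalization (0.0505). For 8 members (21.1%, against 7.76% of all probe sets), every array of 1 sort lay above both day 22 arrays and every array of the other below them. Of the 28 further hydrolases 8 were higher and 3 lower in SCGB3A2+ than in SCGB3A2- cells. ASAH1, acid ceramidase, was higher by 1.75 ± 0.12 (adjusted p = 2.69e-06) and LIPA by 1.07 ± 0.14 (adjusted p = 0.000228). Of the 13 pump partners 1 was higher, OXR1, and 0 were lower (0 at an unadjusted p under 0.05). LAPTM4B, a lysosomal membrane gene, was lower in SCGB3A2+ cells (-1.75 ± 0.14, adjusted p = 7.64e-06), and 6 of the other 19 membrane genes were higher.

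**Figure D4:**
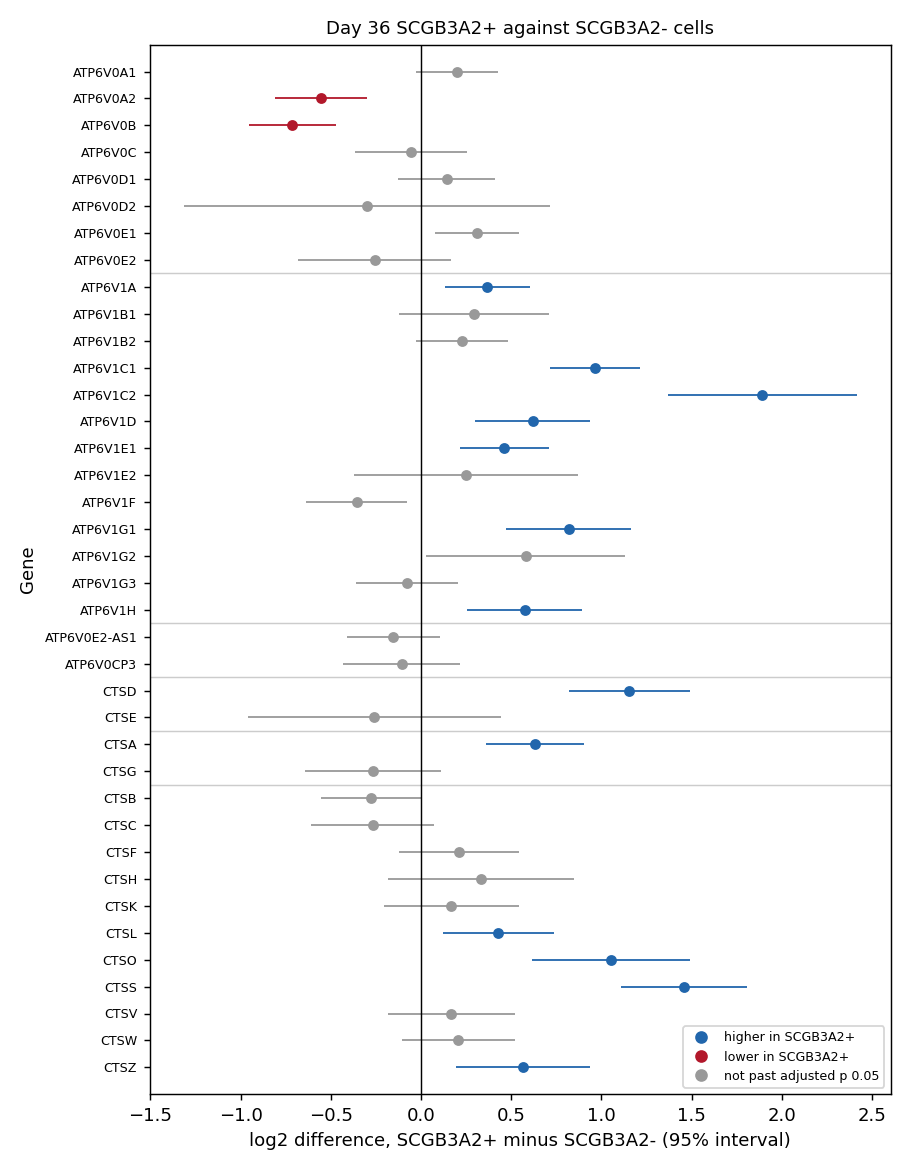
Log2 differences (SCGB3A2+ minus SCGB3A2-, points) with 95% intervals from limma (lines) for all 38 members, grouped by sector or protease class. Blue marks the 13 members higher in SCGB3A2+ cells, red the 2 lower and grey the rest, and all 7 called V1 genes lie to the right of 0 while both called V0 genes lie to the left.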

How the data were processed

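Expression was measured on 12 Affymetrix arrays. The authors deposited 1 table of log2 values for 23786 probe sets, made with RMA and affy 1.36.1 in R 2.15.1 per the submitters' processing notes. RMA subtracts background, quantile-normalizes the arrays and summarises probes, so totals and depth cannot be compared, and the number of arrays limits the precision. A symbol was given for 22458 probe sets, and 1328 had none and are not named here. Array medians lay between 3.66 and 3.75.

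The deposited values were used as they stand. limma 3.58.1 (lmFit and eBayes, in R 4.3.3) was fitted to all 12 arrays with 1 mean a group, leaving 7 residual and 4.43 prior degrees of freedom. It gave 5 comparisons (two-sided) and an F-test. Adjustment was by Benjamini-Hochberg across the 23786 probe sets, and the threshold was 0.05. The scripts were tested on simulated data. Alternatives were the compared arrays alone, variances with an intensity trend, array weights, re-centring, quantile normalization, leaving out probe sets below the 40th percentile (2.96), the replicate letter as a block, and leaving out each array. The main fit used no pairing. Only the block alternative used the letters A, B and C. It fitted letter effects over all 12 arrays, and so tied arrays of every group, not the day 36 sorts alone. In deviations from the group means, same-letter arrays of the sorts went together (r = 0.104, 0.124 and 0.111 across probe sets). Each was the highest between the sorts for its letter. Same-letter arrays of day 22 and SCGB3A2- cells did so too (0.126 for A and 0.114 for C). Those of day 0 did not, with r from -0.0112 to 0.015 against day 22 and the sorts. The labels do not state a pairing. Members and the 12 context lists (157 of 176 entries measured) were chosen with earlier results of these data known. The genes given on every array were the 6 ATP6V members and 6 cathepsins with the largest span among those past the F-test, and, per comparison, the 3 of each family with the largest difference past the threshold and no overlap between arrays. Promoter windows are RefSeq's (GRCh38.p14).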

Additional observations from a re-analysis of the deposited data

Results flagged for a closer look

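For 8 members the day 36 sorts lay on opposite sides of both day 22 arrays, all arrays of 1 sort above and all of the other below. The differences between the sorts (SCGB3A2+ minus SCGB3A2-, log2) were 1.89 for ATP6V1C2, 1.46 for CTSS, 1.16 for CTSD, 1.05 for CTSO, 0.97 for ATP6V1C1, 0.82 for ATP6V1G1 and -0.56 for ATP6V0A2, each past the threshold. For ATP6V0E1 the difference was 0.31 and missed it (adjusted p = 0.056 in limma). The difference between the movements away from day 22 is the difference between the sorts, so both rest on the same test, and 7.76% of all probe sets lay on opposite sides in this way. In 7 of the 8 genes the SCGB3A2+ arrays were the higher ones, and ATP6V0A2 was the exception.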

How the results depend on the processing

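Calls under all alternatives numbered 13 of 16 members at day 15 against day 0, 7 of 10 at day 22 against day 15, 3 of 9 in SCGB3A2+ cells against day 22, 3 of 7 in SCGB3A2- cells against day 22, 11 of 15 between the sorts and 25 of 27 in the F-test, and no call was reversed under any of them. With the replicate block, 15, 8, 10, 6 and 13 members passed in the 5 comparisons in that order, and 26 in the F-test. Leaving out 1 array moved the members called in SCGB3A2+ cells against day 22 between 3 and 11 and in SCGB3A2- cells against day 22 between 4 and 9. Over all probe sets the same steps gave 1012 to 4119 and 935 to 2265 calls, and 2859 to 5275 at day 22 against day 15. On the compared arrays alone, 1869 of all probe sets passed in SCGB3A2+ cells against day 22. Re-centring and quantile normalization moved the median of all probe sets by at most 0.0377 and 0.0448. The filter on dim probe sets kept 16116, among them 32 members. Groups of 2 or 3 arrays limit every comparison, and members below 2.96 may lie under the range in which these arrays can show a difference. The causes of the lost calls were not tested.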

Other observations

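Regulators of lysosomal genes were measured beside the members. Of 10 genes of the TFEB family and its regulators, 6 were higher and 2 lower in SCGB3A2+ than in SCGB3A2- cells by limma (10.1% and 12.8% of all probe sets), among them TFEB itself (0.74 ± 0.16, adjusted p = 0.00551) and RRAGD, a GTPase that recruits it to lysosomes (0.74 ± 0.16, adjusted p = 0.00477). At day 15 against day 0, 5 rose and 1 fell (16.2% and 15.3% of all probe sets), with RRAGC at 1.52 ± 0.16 and MITF at 1.11 ± 0.20. TFEB had 1.86 and 2.11 at day 0, 2.13 and 2.23 at day 15, 3.12 and 2.59 at day 22, 3.06, 3.06 and 3.34 in SCGB3A2+ cells and 2.56, 2.28 and 2.39 in SCGB3A2- cells. The group means of TFEB other than that of SCGB3A2+ cells, and the day 0 mean of MITF (2.60), lay below 2.96. The sizes of the differences of TFEB and MITF are therefore uncertain.

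Of 13 endogenous inhibitors of cathepsins, 2 rose and 1 fell at day 15 against day 0, where 31.5% of all probe sets passed. CST3, which encodes the secreted inhibitor cystatin C, had 8.36 and 8.56 at day 15 and 5.57 and 5.49 at day 0 (2.93 ± 0.16, adjusted p = 1.18e-07). CSTB, an intracellular cystatin, was higher in SCGB3A2+ than in SCGB3A2- cells (0.71 ± 0.17, adjusted p = 0.00885), 1 of 13 inhibitors to pass there, where 22.9% of all probe sets did. Among 8 receptors and enzymes that sort proteins to lysosomes, 3 were higher and 2 lower in SCGB3A2+ than in SCGB3A2- cells (10.1% and 12.8% of all probe sets). LRP2, an endocytic receptor, was higher than at day 22 in SCGB3A2+ cells (2.21 ± 0.30, adjusted p = 0.000976). It was also higher in SCGB3A2- cells (1.29 ± 0.30, adjusted p = 0.0235), and these comparisons share the day 22 arrays. Of the 8 genes LRP2 alone was higher, while 3 were lower in SCGB3A2+ cells and 1 in SCGB3A2- cells. GNPTG was lower in both. Over all probe sets, 6.75% were higher and 7.71% lower in SCGB3A2+ cells, and 3.75% and 4.15% in SCGB3A2- cells.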
